A study of Arabidopsis thaliana with 18 samples.

Results

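The genes described here encode proteins of the cytosolic ribosome of Arabidopsis thaliana. They are 41 genes, chosen by locus identifier as a fixed list of 60S and 40S ribosomal protein genes, of the 32833 genes in the deposited expression table. Of the 41, 26 belong to the large 60S subunit and 15 to the small 40S subunit, and together they cover 27 kinds of ribosomal protein, 11 of which are represented by more than 1 gene. RNA was sequenced from whole rosettes of plants that were 20 days old and grown in a 12:12 light:dark cycle, and 18 libraries fell into 6 groups of 3. Col-0 was the wild type, SnRK1α1-OE carried SnRK1α1 under the 35S promoter, which is active in most plant tissues, in Col-0, and sesquiα2 was homozygous for the snrk1α1-3 insertion and heterozygous for the snrk1α2-2 insertion in the same ecotype. Rosettes of each genotype were collected when the day ended (ED, ZT12) and when the night ended (EN, ZT24), and each library came from a pool of rosettes. The sesquiα2 seedlings were first selected on BASTA plates and then moved to soil, whereas the study's methods describe other plants as sown on soil. The growth protocol also mentions a ColB control for BASTA-selected plants, but the control libraries are labelled Col-0. How the control plants were raised is therefore uncertain. Any difference in raising between sesquiα2 and the other plants cannot be told apart from genotype.

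Cytosolic ribosomes make the bulk of the proteins of a leaf cell, and building them is among the largest costs of growth. In plants each ribosomal protein is encoded by a small family of closely related genes, and a balanced ribosome needs every kind of protein in matched amounts. The energy-sensing kinase SnRK1 and the growth-promoting kinase TOR act on this machinery in opposite directions, and S6 kinase, a target of TOR, phosphorylates the ribosomal protein RPS6. The comparisons below ask whether the transcripts of the 41 genes changed between day and night and whether more or less SnRK1α altered them.

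Values are given as normalised values, that is the deposited value divided by a factor for each library that sets the median of all genes equal between libraries, so that every change is relative to the median gene. Each library held 35050877 to 40416618 reads assigned to genes and the member with the fewest reads in any library, RPL10B, had 177. The label checks came out with their groups for the transgene and the clock. SnRK1α1 (AT3G01090) had normalised values of 29220 to 32260 in the 6 SnRK1α1-OE libraries and 1539 to 2160 in the other 12. A value summed over the whole gene need not show a T-DNA insertion, so this did not check the sesquiα2 label. Of the clock genes, CCA1 and LHY were called higher at EN whichever the genotype, whereas TOC1 was called lower. The log2 fold change of TOC1 lay between -2.77 and -2.71. The summed level of these 3 genes was 4662 to 5660 at ED and 63320 to 90070 at EN, a rise that came from CCA1 and LHY. Of 4 leaf mesophyll markers, RBCS-1A had 552100 to 969900, GAPA1 90560 to 188400, LHCB1.1 29300 to 298200 and LHCB2.1 3247 to 134600. Their summed level was higher at EN in each genotype, at 678600 to 1030000 over the 9 ED libraries and 1196000 to 1526000 over the 9 EN libraries, and 4, 3 and 3 of the 4 were called higher at EN in Col-0, SnRK1α1-OE and sesquiα2. Of the root markers, CASP1 and COBL9 stayed at or below 15.4 while BGLU23 had 1336 to 2616. Among shoot apex markers CLV3 stayed at or below 4.45, while CLV1 had 1347 to 2649, ANT 407.2 to 1220, STM 19.8 to 237.7 and KNAT1 24.5 to 183.6, and AP1 of flowers stayed at or below 2.14. The part of these markers in the results below was not tested.

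The libraries of a group were not equally alike for these genes. In Col-0 and in SnRK1α1-OE, EN replicate 1 stood above EN replicates 2 and 3. The 41 genes together took up 1.2%, 0.78% and 0.792% of all deposited signal in Col-0 EN replicates 1, 2 and 3, and 1.26%, 0.907% and 0.785% in those of SnRK1α1-OE EN. In sesquiα2 EN the shares were 1.06%, 0.879% and 1.11%. At ED the shares ranged from 1.28% to 1.63% in Col-0, from 1.31% to 1.55% in SnRK1α1-OE and from 1.25% to 1.68% in sesquiα2. Thus the ED and EN shares overlapped in no genotype, although the highest EN library came close to the lowest ED library in Col-0 and SnRK1α1-OE.

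**Figure D1:**
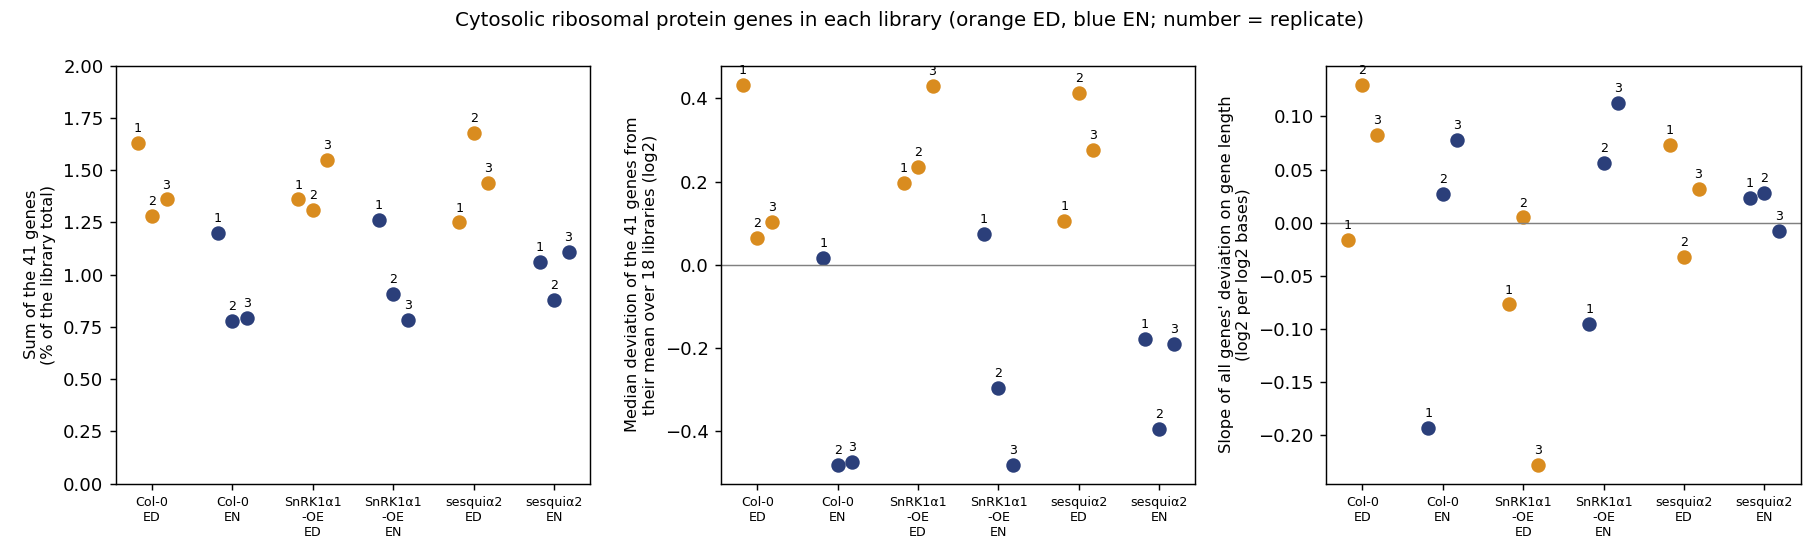
For each of 18 libraries, the left panel plots the summed share of the 41 genes (percent of the library total), the middle panel the median deviation of the 41 genes from their own mean over all libraries (log2), and the right panel the slope of all genes' deviations on gene length (log2 per log2 bases); each point is 1 library and carries its replicate number. The EN libraries of replicate 1 in Col-0 and SnRK1α1-OE lie at 0.02 and 0.07 in the middle panel, above the other EN libraries.

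A measure of library composition moved with these 2 libraries. Ribosomal protein mRNAs are short: the 41 genes were 639 to 1742 bases long with a median of 1166, against a median of 1756.5 over all genes in the libraries. The slope of all genes' deviations on gene length, both on log2 scales, was -0.19 in Col-0 EN replicate 1, against 0.03 and 0.08 in replicates 2 and 3, and it was -0.10 in SnRK1α1-OE EN replicate 1, against 0.06 and 0.11. The lowest slope, -0.23, was that of SnRK1α1-OE ED replicate 3. The 2876 other genes with lengths in the middle range of the members, 951 to 1289 bases, stood at a median of 0.21 above their own mean in Col-0 EN replicate 1 and 0.24 in SnRK1α1-OE ED replicate 3 on the log2 scale. The part of library composition in the results below was tested only by removing the trend on gene length and by leaving out each library in turn, and those values are given beside the counts they change.

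Per base of gene, the 41 genes spanned a wide range of levels. RPS8A (AT5G20290), a protein of the 40S body, was the highest, with a mean normalised value of 28500 per kilobase over the 18 libraries. Next in order were RPL10A at 18400, RPP0B at 16600 and RPL27AC at 15000 per kilobase. RPL10B (AT1G26910) was the lowest at 363 per kilobase, preceded by RPP0C at 1020, RPL12C at 1970 and RPL23AB at 3160. Each of these 4 had a paralog among the 41 genes with a higher level per kilobase. RPS8A had normalised values of 39300, 29730 and 30890 at ED and 34800, 23590 and 24900 at EN in Col-0, so that the groups overlapped. In SnRK1α1-OE its values were 33560, 34350 and 41910 at ED and 35640, 27840 and 23460 at EN, and in sesquiα2 30590, 39480 and 35180 at ED and 31250, 25770 and 31150 at EN. RPS8A was not called in any genotype by limma. Its log2 fold changes for EN over ED were -0.27, -0.35 and -0.26, with adjusted p of at least 0.105. Under other settings it was called lower in each genotype. These were Col-0 without EN replicate 1 (-0.435, adjusted p = 0.0405) or with the trend on gene length removed (-0.347, adjusted p = 0.0435). The others were SnRK1α1-OE without EN replicate 1 (-0.505, adjusted p = 0.011) and sesquiα2 without ED replicate 1 (-0.354, adjusted p = 0.0499).

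Most of the 41 genes were lower at the end of the night than at the end of the day. In Col-0, 19 of 41 were lower at EN and none was higher at an adjusted p under 0.05, beside 21.6% of all 19594 genes tested lower and 21.7% higher. In SnRK1α1-OE, 27 of 41 were lower and none was higher, beside 24% of 19570 genes tested lower and 23% higher. In sesquiα2, 32 of 41 were lower and none was higher, beside 25.7% of 19699 genes lower and 24.6% higher. No member was higher at EN at an unadjusted p under 0.05 either, and edgeR's quasi-likelihood test on reads recovered from the deposited values called 21, 24 and 32 lower and 0 higher. All 41 genes passed the filter on low values in every comparison. The 41 genes had a median log2 fold change of -0.51 (Col-0), -0.59 (SnRK1α1-OE) and -0.54 (sesquiα2), while the median of all genes tested was 0.01, 0.00 and 0.01. The changes were modest in size: only 2, 1 and 1 of the genes passed the test with at least a 2-fold change, beside 19.5%, 17.3% and 17.1% of all genes. Limma was fitted to log2(normalised value + 1), with adjustment over all genes tested in each comparison.

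The number called in Col-0 and in SnRK1α1-OE turned on single libraries. Without Col-0 EN replicate 1 it was 36 of 41, with a median log2 fold change of -0.70, and without Col-0 EN replicate 2 or replicate 3 it was 10. Without SnRK1α1-OE EN replicate 1 it was 33, whereas without SnRK1α1-OE EN replicate 2 it was 14, without EN replicate 3 it was 15 and without ED replicate 3 it was 18. Removing the trend on gene length gave 30 lower in Col-0, 29 in the SnRK1α1-OE line and 33 in sesquiα2. In sesquiα2 the number called ranged from 29 to 35 as each library was left out. How many of all genes were called in each of these fits is not given here. Whether the swings were particular to the 41 genes was therefore not tested. All 3 EN libraries lay below all 3 ED libraries for 22 genes in Col-0, 28 in the SnRK1α1-OE line and 33 in sesquiα2, beside 27.6%, 28.2% and 29.6% of all genes. No member had every EN library above every ED library, which 27.4%, 27.9% and 29.2% of all genes had.

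**Figure D2:**
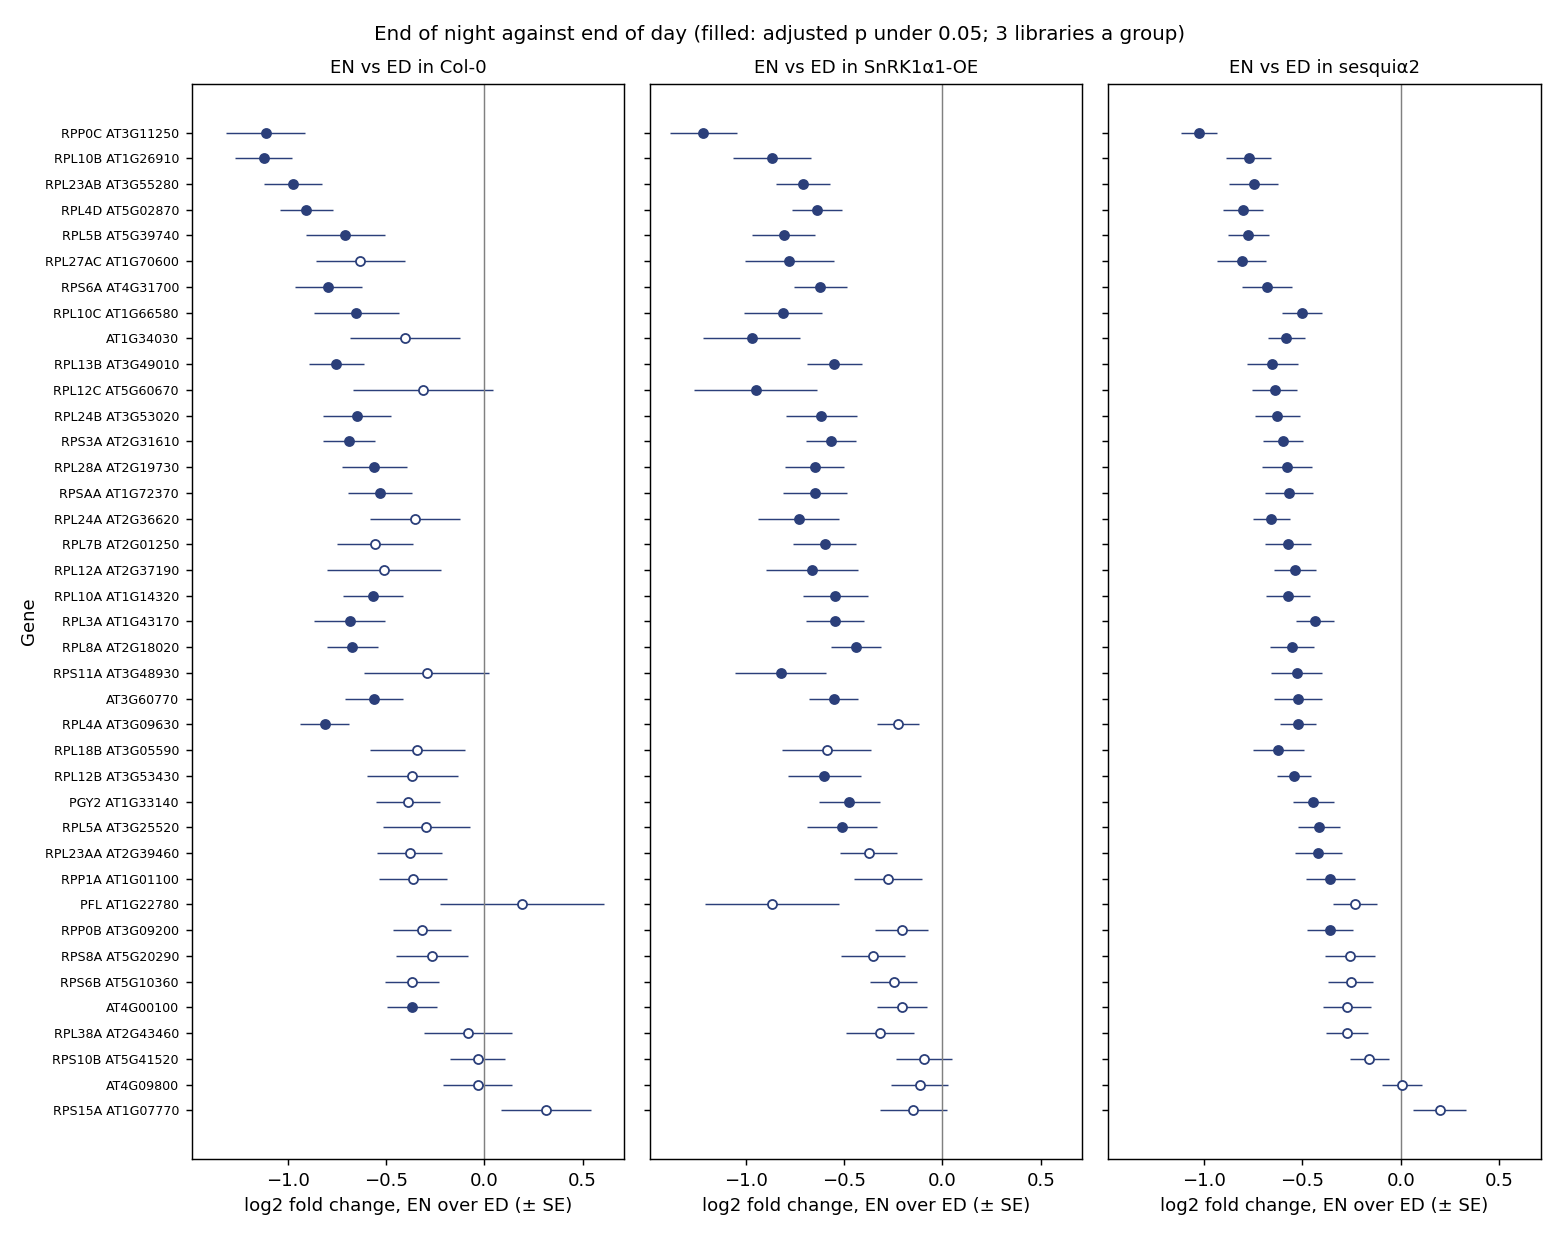
Log2 fold change of EN over ED with its standard error for 39 of the 41 genes (rows, ordered by the mean over genotypes) in Col-0, SnRK1α1-OE and sesquiα2 (panels, 3 libraries a group); filled points passed an adjusted p under 0.05. Points to the left of 0 are lower at the end of the night, and RPP0C has the lowest mean, with -1.11, -1.22 and -1.03.

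Of the 41 genes, 17 were called lower at EN in all 3 genotypes, 11 in a pair of genotypes, 5 in a single genotype and 8 in none. In 38 of them the fold change was below 0 in every genotype. Across the 41 genes, the log2 fold changes in sesquiα2 had a Pearson correlation of 0.834 with those in Col-0 and 0.765 with those in SnRK1α1-OE, and those in Col-0 and SnRK1α1-OE had one of 0.466. These correlations are over 41 genes, which share their libraries and are not independent replicates. The mean fold change over genotypes had a Spearman correlation of -0.0963 with gene length and 0.23 with level per kilobase across the 41 genes.

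Only 8 of the 17 genes called lower in all 3 genotypes kept that call under all of the settings tried. Among these 8 were RPL4D, RPL10B, RPL23AB, RPL13B, RPP0C, RPS3A and RPS6A. Those settings covered 51 fits with other pseudocounts, scalings, tests and left-out libraries. RPS3A lies where the mRNA enters the 40S subunit, and RPL4 and RPL23A lie along the tunnel through which the new peptide leaves.

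Among the 60S genes, 13 of 26 were called lower in Col-0, 20 in the SnRK1α1-OE line and 25 in sesquiα2. Beside these, 21.6%, 24% and 25.7% of all genes tested were lower. The median log2 fold changes of the 60S genes were -0.56, -0.60 and -0.57. RPP0C (AT3G11250), a gene for the base of the acidic stalk that recruits translation factors, had the largest fall in SnRK1α1-OE and sesquiα2 and in the mean over genotypes, and came just after RPL10B in Col-0. Its normalised values in Col-0 were 2081, 1771 and 1745 at ED and 1173, 783.6 and 683.5 at EN. In SnRK1α1-OE they were 1998, 1840 and 2120 at ED and 1142, 752.1 and 724 at EN. In sesquiα2 they were 1617, 1824 and 1848 at ED and 934.5, 802.8 and 868.2 at EN. Every EN library was below every ED library in each genotype. Its log2 fold change was -1.11 ± 0.20 (SE) in Col-0, -1.22 ± 0.17 in the SnRK1α1-OE line and -1.03 ± 0.09 in sesquiα2, with adjusted p of 0.00291, 0.000313 and 2.49e-05 by limma.

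RPL10B, the minor of 3 genes for RPL10, a protein that joins the 60S subunit late in its maturation, fell to a similar degree. Its normalised values in Col-0 were 528.6, 474.5 and 528.6 at ED and 257.1, 200.2 and 245 at EN. In SnRK1α1-OE they were 412.7, 520.2 and 496.7 at ED and 359.2, 220.5 and 221.8 at EN, and in sesquiα2 496.5, 504.8 and 496 at ED and 305.1, 257.6 and 318.9 at EN. The ED and EN groups were apart in all 3 genotypes, and the highest EN library was SnRK1α1-OE replicate 1. The log2 fold changes were -1.12 ± 0.14 (SE), -0.87 ± 0.20 and -0.77 ± 0.11, with adjusted p of 0.000544, 0.00566 and 0.000472 by limma.

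**Figure D3:**
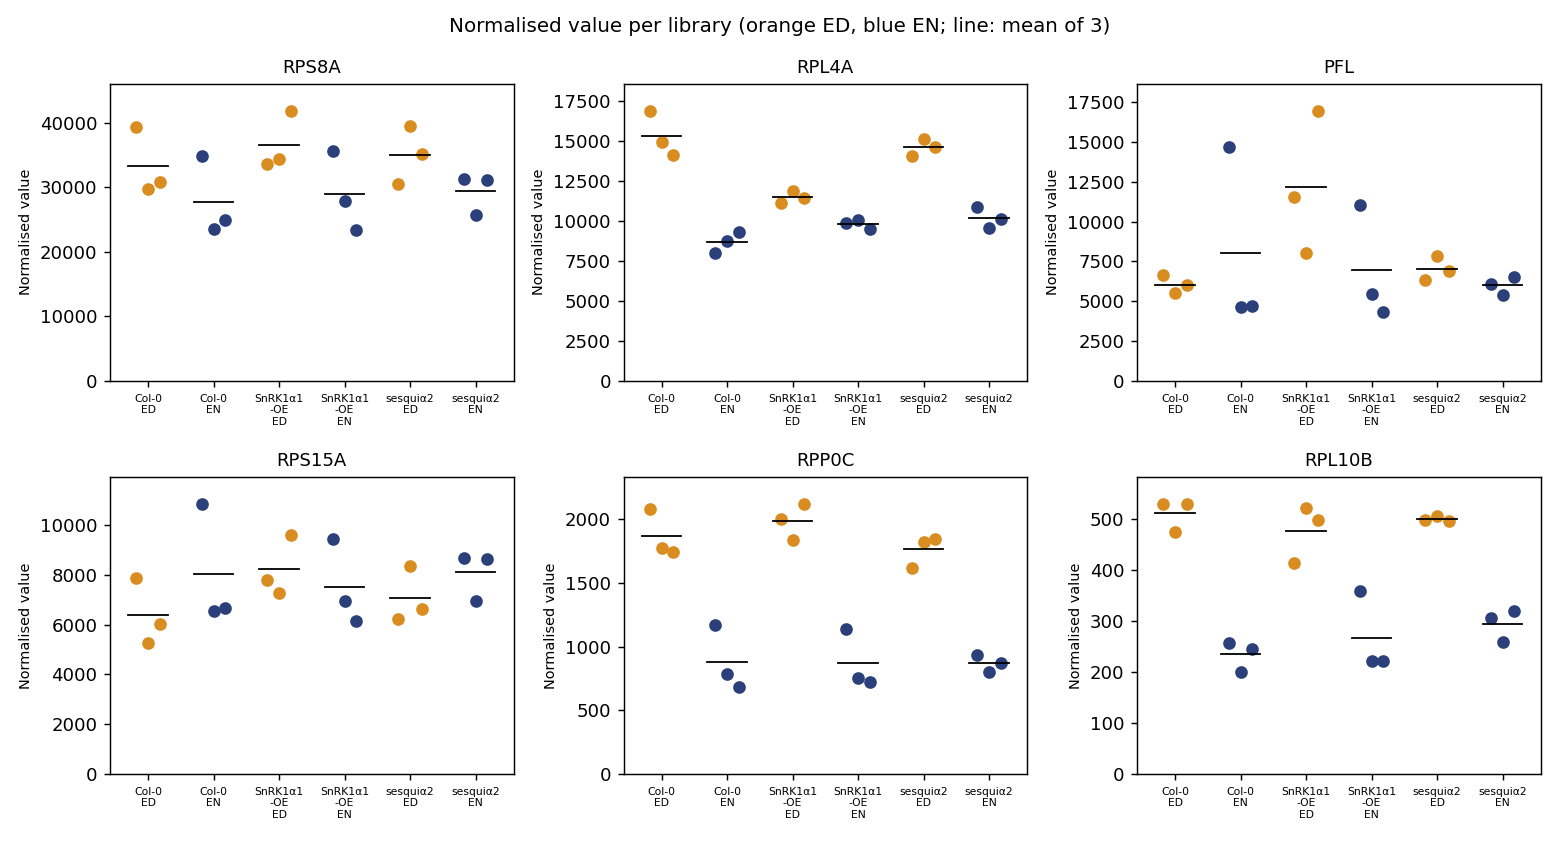
Normalised value (linear axis from 0) of 6 genes in each of the 18 libraries; points are libraries and lines are means of 3. RPP0C and RPL10B are lower in every EN library than in every ED library of the same genotype, RPL4A has 11140 to 11830 at ED in SnRK1α1-OE against 14050 to 16880 in the other genotypes, and PFL has its highest values, 14680 and 16970, in single libraries.

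RPL23AB (AT3G55280), whose protein sits at the exit of the peptide tunnel, came after RPL10B and RPP0C among the largest falls in Col-0. Its values there were 4284, 3331 and 3464 at ED and 2159, 1673 and 1789 at EN, without overlap, and the log2 fold change was -0.97 ± 0.15 (SE), with an adjusted p of 0.00126 by limma. In sesquiα2 the falls of RPL27AC and RPL4D came after that of RPP0C. RPL27AC (AT1G70600) had 15570, 20640 and 18480 at ED and 10770, 9391 and 11030 at EN in sesquiα2, giving -0.81 ± 0.12 (SE) on the log2 scale with an adjusted p of 0.000594 by limma. It was also lower in SnRK1α1-OE (-0.78, adjusted p = 0.017), where the call was lost without ED replicate 3, EN replicate 2 or EN replicate 3. It missed the threshold in Col-0 (-0.63, adjusted p = 0.0545) and was called there without EN replicate 1 (-0.878, adjusted p = 0.00303). RPL4D (AT5G02870) had 21400, 23010 and 22520 at ED and 13970, 11700 and 12940 at EN in sesquiα2, also without overlap, with a log2 fold change of -0.80 ± 0.10 (adjusted p = 0.000179 by limma).

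RPL12C (AT5G60670), a gene for a protein at the foot of the stalk, had a called fall in SnRK1α1-OE, after those of RPP0C and AT1G34030 in size. Its values were 2716, 2626 and 4570 at ED and 2828, 1345 and 1192 at EN. The groups overlapped through EN replicate 1, and the log2 fold change was -0.95 ± 0.31 (SE), with an adjusted p of 0.0298 by limma. The call was lost without ED replicate 3, EN replicate 2 or EN replicate 3, and in the edgeR test on recovered reads, with a range of adjusted p of 0.00101 to 0.11 over the settings tried. In Col-0 the values were 2351, 1871 and 1906 at ED and 3084, 1108 and 1266 at EN, and the gene was not called. Without Col-0 EN replicate 1 it was called lower there (-0.765, adjusted p = 0.00428 by limma).

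Several other 60S genes had falls of intermediate size. RPL3A and RPL8A, whose proteins flank the peptidyl transferase centre, had log2 fold changes of -0.68 and -0.67 in Col-0, -0.55 and -0.44 in the SnRK1α1-OE line and -0.44 and -0.55 in sesquiα2, all called. RPL5B, whose protein carries the 5S rRNA into the ribosome, was called with -0.71, -0.81 and -0.78. RPL13B and RPL28A were called in all 3 genotypes, with fold changes between -0.75 and -0.55. Of the genes in this paragraph, only RPL13B was called in every genotype under every setting tried. RPL7B was called in SnRK1α1-OE and sesquiα2 and missed the threshold in Col-0 with -0.56 (adjusted p = 0.051 by limma), although its EN libraries all lay below its ED libraries there. RPL18B was called only in sesquiα2 (-0.62), PGY2, the gene for RPL9B, in SnRK1α1-OE (-0.47) and sesquiα2 (-0.44), and RPP1A, an acidic stalk protein gene, only in sesquiα2 (-0.36). RPL38A, the gene for one of the smallest 60S proteins, was called in none, with -0.08, -0.32 and -0.27. Several of these missed calls turned on the setting. Without Col-0 EN replicate 1, RPL7B (-0.74), PGY2 (-0.488) and RPL18B (-0.609) were called lower in Col-0. RPP1A was called there with the length trend removed (-0.478). Without SnRK1α1-OE EN replicate 1, RPL18B (-0.847) and RPL38A (-0.479) were called in that line. RPL38A was also called in sesquiα2 without ED replicate 1 (-0.355).

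Among the 40S genes, 6 of 15 were called lower in Col-0, 7 in the SnRK1α1-OE line and 7 in sesquiα2, and the median log2 fold changes were -0.37, -0.55 and -0.27. Again, 21.6%, 24% and 25.7% of all genes tested were lower in these genotypes. The difference between the 2 subunits was not tested. RPS3A was called in all genotypes with -0.69, -0.57 and -0.60, and RPSAA, the homologue of the laminin-receptor family of 40S proteins, with -0.53, -0.65 and -0.57. RPS11A was called in sesquiα2 (-0.53) and, although its groups overlapped, in SnRK1α1-OE (-0.82). In Col-0 its values were 9652, 7793 and 8444 at ED and 12310, 5120 and 5407 at EN. Replicate 1 at EN was thus the highest of the 6. Without that library RPS11A was called lower in Col-0 (-0.696, adjusted p = 0.00333 by limma).

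Several 40S genes stood near 0. RPS10B had log2 fold changes of -0.03, -0.09 and -0.16, and AT4G09800, an RPS18 gene, had -0.03, -0.12 and 0.01. RPS15A (AT1G07770), a gene for a protein of the 40S platform, had the highest fold changes in Col-0 and sesquiα2. Its values in Col-0 were 7848, 5271 and 6015 at ED and 10840, 6530 and 6681 at EN. In SnRK1α1-OE they were 7805, 7270 and 9609 at ED and 9441, 6939 and 6143 at EN, and in sesquiα2 6207, 8336 and 6615 at ED and 8687, 6945 and 8647 at EN. The groups overlapped in each genotype, and the log2 fold changes of 0.32, -0.15 and 0.20 did not pass the test (adjusted p = 0.307, 0.506 and 0.258 by limma). Under 2 other settings RPS15A was called higher at EN by limma. These were a replicate block in Col-0 (adjusted p = 0.0375) and leaving out ED replicate 2 in sesquiα2 (0.32, adjusted p = 0.0492).

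In some families, but not in most of the pairs, paralogs of the same protein fell to different degrees. The ratio of 2 paralogs within a library does not depend on how the libraries are scaled, and 17 such pairs could be formed from 11 families with 25 genes. In 4 pairs described here the ratios of the 9 ED libraries and of the 9 EN libraries did not overlap. The 17 pairs are all that the 11 families allow, and the ratios are given as a description without a test. Paralogs share sequence, and how reads that map to several genes were counted is not given in the sources used here, so that the split of reads between copies is uncertain.

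The widest ratio among these 4 was that of the stalk-base genes RPP0B (AT3G09200) and RPP0C. RPP0B exceeded RPP0C 12.7- to 16.8-fold at ED and 20.7- to 29.2-fold at EN. RPP0B had values of 31150, 25120 and 24000 at ED and 24290, 19830 and 19930 at EN in Col-0, and its fall of -0.32 on the log2 scale did not pass the test (adjusted p = 0.12 by limma). It was called lower in Col-0 without EN replicate 1 (-0.407, adjusted p = 0.0405 by limma) and with the length trend removed (-0.33, adjusted p = 0.0412). It was not called in SnRK1α1-OE (-0.21) and was called in sesquiα2 (-0.36), where the call was lost in 6 of 16 alternatives.

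For RPL5, whose genes are RPL5A (AT3G25520) and RPL5B (AT5G39740), the ratio of A to B was 1.15 to 1.26 at ED and 1.48 to 1.66 at EN. In Col-0, RPL5A had 25300, 20700 and 21870 at ED and 26470, 15220 and 15210 at EN and was not called, whereas RPL5B had 21700, 17190 and 19070 at ED and 15980, 9936 and 10170 at EN and was. RPL5A was called in SnRK1α1-OE (-0.51) and sesquiα2 (-0.42), and in Col-0 without EN replicate 1 (-0.555, adjusted p = 0.00717 by limma). For RPL23A the ratio of RPL23AA (AT2G39460) to RPL23AB was 1.90 to 2.28 at ED and 2.44 to 3.14 at EN. RPL23AA in Col-0 had 8148, 6399 and 6894 at ED and 6789, 4875 and 4867 at EN, with overlap, and its fold change of -0.38 was not called. Without Col-0 EN replicate 1 RPL23AA was called in Col-0 (-0.53, adjusted p = 0.012 by limma), and it was called in sesquiα2 (-0.42). In both families the copy with the lower level lost more of its transcript by EN.

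The RPS6 genes, which encode the 40S protein phosphorylated by S6 kinase, changed places. RPS6A (AT4G31700) exceeded RPS6B (AT5G10360) in every ED library, with ratios of 1.03 to 1.21, and was below it in every EN library, with ratios of 0.764 to 0.962. RPS6A in Col-0 had 18480, 13910 and 15030 at ED and 10970, 7853 and 8529 at EN, and was called in each genotype with -0.79, -0.62 and -0.68. RPS6B in Col-0 had 16210, 13220 and 12450 at ED and 11880, 10280 and 10040 at EN, and its fold changes of -0.37, -0.25 and -0.26 were not called. Its Col-0 libraries did not overlap (adjusted p = 0.0656 by limma). RPS6B was called lower in Col-0 on the values as deposited, with quantile normalisation and in the fit of all 18 libraries. The same held with a replicate block, by edgeR, with the length trend removed and without EN replicate 1. In SnRK1α1-OE it was called without EN replicate 1.

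**Figure D4:**
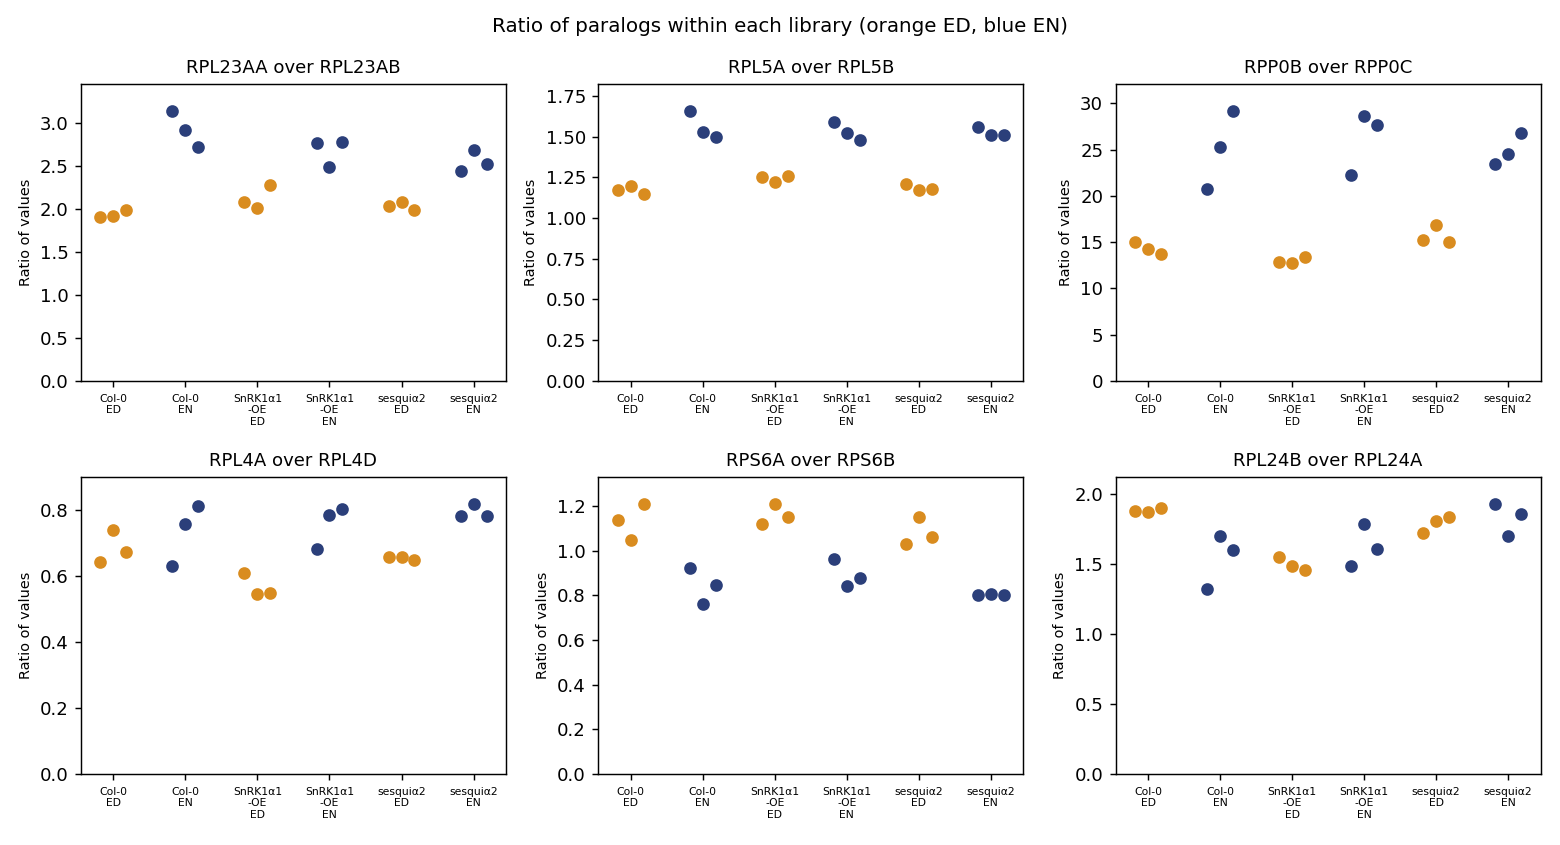
Ratio of 2 paralogs within each library (linear axis from 0, 1 point a library, ED in orange and EN in blue) for 6 pairs. In RPL23A, RPL5, RPP0 and RPS6 no ED ratio falls in the range of the EN ratios, while the ranges overlap in RPL4A over RPL4D and in RPL24B over RPL24A, at 1.46 to 1.90 for ED and 1.32 to 1.93 for EN in the latter.

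In the other families described here the ratios at ED and EN overlapped. RPL4A to RPL4D was 0.544 to 0.738 at ED and 0.629 to 0.818 at EN. In SnRK1α1-OE, RPL4D had 18330, 21730 and 20880 at ED and 14530, 12860 and 11810 at EN and was called, whereas RPL4A (AT3G09630) had 11140, 11830 and 11420 at ED and 9876, 10080 and 9462 at EN and was not (-0.23, adjusted p = 0.106 by limma). RPL24B (AT3G53020), also known as STV1 and needed in Arabidopsis for translation after upstream open reading frames, had 16440, 12430 and 12790 at ED and 10780, 7754 and 8007 at EN in Col-0 and was called. Its paralog RPL24A had 8737, 6658 and 6721 at ED and 8157, 4564 and 4997 at EN in Col-0 and was not called there. Without Col-0 EN replicate 1 RPL24A was called in Col-0 as well (-0.60, adjusted p = 0.014 by limma). It was called in SnRK1α1-OE (-0.73) and sesquiα2 (-0.66), where RPL24B had -0.62 and -0.63. The RPL10 and RPL12 genes did not differ in call within a genotype: RPL10A, RPL10B and RPL10C were called in all 3, and the 3 RPL12 genes in SnRK1α1-OE and sesquiα2. Of the RPS13 genes, AT3G60770 was called in all genotypes (-0.56, -0.55 and -0.52). AT4G00100 had 8176, 8251 and 10230 at ED and 8098, 7974 and 6989 at EN in SnRK1α1-OE. With all libraries it was called only in Col-0 (-0.37, adjusted p = 0.0466 by limma). That call was lost without the filter on low values and without any 1 of the Col-0 libraries other than EN replicate 1. In sesquiα2 the gene was called lower without ED replicate 1 (-0.365, adjusted p = 0.039 by limma).

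The 3 RPS18 genes, which the file names alike and which encode a protein of the 40S head, differed among themselves. AT1G34030 in SnRK1α1-OE had 6975, 6261 and 9516 at ED and 5811, 3305 and 2887 at EN, without overlap, and its log2 fold change of -0.97 ± 0.25 (SE) was the largest called there after RPP0C (adjusted p = 0.00934 by limma). In Col-0 it had 6185, 4700 and 5299 at ED and 6539, 3238 and 3099 at EN and was not called. It was called lower there without EN replicate 1 (-0.746, adjusted p = 0.00424 by limma) and with the length trend removed (-0.537, adjusted p = 0.0292). AT4G09800 had 6245, 6578 and 8121 at ED and 7353, 6486 and 5521 at EN in SnRK1α1-OE, with overlap. PFL (AT1G22780), a gene whose mutant has pointed first leaves, varied widely between libraries. In Col-0 its values were 6625, 5505 and 6019 at ED and 14680, 4657 and 4720 at EN. In SnRK1α1-OE they were 11540, 8001 and 16970 at ED and 11040, 5483 and 4295 at EN, and in sesquiα2 6355, 7851 and 6919 at ED and 6088, 5406 and 6545 at EN. The libraries highest for PFL, SnRK1α1-OE ED replicate 3 and Col-0 EN replicate 1, were also those with the lowest slopes on gene length. PFL was called in no genotype with all libraries, although its log2 fold change in SnRK1α1-OE was -0.865 (adjusted p = 0.06 by limma). It was called lower there without ED replicate 2 (-1.139, adjusted p = 0.027) and without EN replicate 1 (-1.253, adjusted p = 0.00646). In Col-0 its log2 fold change turned from 0.19 to -0.35 (adjusted p = 0.0329 by limma) without Col-0 EN replicate 1.

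The sequences before 3 of these genes are printed, for the RPP0 pair, whose copies fell to different degrees, and for RPS15A, which was not called. Each is the 250 bases before the annotated gene start in TAIR10.1 (RefSeq), on the strand of the gene, and capitals mark the site II element (TGGGCC or TGGGCT, either strand), which is known from plant ribosomal protein promoters, as is the telo-box (AAACCCTAA, either strand). RPP0C lies on the plus strand (chr3:3521079-3521328) and the others on the minus strand, RPP0B at chr3:2825242-2825491 and RPS15A at chr1:2409792-2410041. All 3 windows reach into a neighbouring gene.
RPP0C: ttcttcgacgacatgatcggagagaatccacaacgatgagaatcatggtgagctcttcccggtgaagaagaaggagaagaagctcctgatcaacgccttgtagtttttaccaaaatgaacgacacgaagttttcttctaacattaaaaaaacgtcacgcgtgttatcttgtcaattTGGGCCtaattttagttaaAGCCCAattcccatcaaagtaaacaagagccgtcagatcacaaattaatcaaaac
RPP0B: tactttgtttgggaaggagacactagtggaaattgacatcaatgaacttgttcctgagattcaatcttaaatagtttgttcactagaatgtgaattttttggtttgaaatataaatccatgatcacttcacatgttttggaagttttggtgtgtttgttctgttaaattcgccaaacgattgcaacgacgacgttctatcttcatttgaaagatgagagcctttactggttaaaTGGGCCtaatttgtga
RPS15A: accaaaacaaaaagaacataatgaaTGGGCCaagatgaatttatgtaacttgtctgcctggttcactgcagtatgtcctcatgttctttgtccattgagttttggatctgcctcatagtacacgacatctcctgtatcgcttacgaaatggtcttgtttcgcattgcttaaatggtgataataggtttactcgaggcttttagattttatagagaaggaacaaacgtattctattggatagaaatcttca

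RPP0C held 2 site II elements and RPP0B and RPS15A 1 each, and none of the 3 held a telo-box. Over all 41 windows, 29 (70.7%) held a site II element and 22 (53.7%) held 2 or more, while 19.2% and 12% of the windows of all 27443 protein-coding genes did. Matches that overlap were counted separately. The telo-box was in 4 windows (9.76%), against 2.61% of all. Site II elements were in 12 of the 17 genes called lower in all genotypes and in 6 of the 8 called in none. These matches describe letters in a window and not bound sites.

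None of the 41 genes passed the test between genotypes. In SnRK1α1-OE against Col-0 at ED, 0 of 41 were called higher and 0 lower, beside 0.715% and 0.153% of all genes, and the median log2 fold change was 0.08 against -0.03 for all genes. At EN in the same contrast 0 were called, beside 0.0464% higher and 0.0258% lower, with medians of 0.06 and 0.00. In sesquiα2 against Col-0 0 were called at ED, beside 0.179% higher and 0.158% lower, with medians of 0.04 and 0.00. At EN 0 were called, beside 1.32% higher and 1.51% lower, with medians of 0.09 and 0.00. At an unadjusted p under 0.05 there were 6, 0, 0 and 1 of the 41 genes in these 4 comparisons, beside 22.2%, 3.53%, 14.3% and 16.9% of all genes, and edgeR's quasi-likelihood test on the recovered reads also called 0 in each. All libraries of one genotype lay above all of Col-0 for 6, 1, 0 and 2 of the 41 genes (16.7%, 4.91%, 12.2% and 10.9% of all genes) and below for 2, 0, 1 and 0 (11.7%, 4.85%, 8.69% and 12.4%). The standard errors of single genes were 0.09 to 0.49 on the log2 scale, so that small genotype effects were not detectable with 3 libraries a group. SnRK1α1-OE and sesquiα2 were each compared with the same Col-0 libraries.

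**Figure D5:**
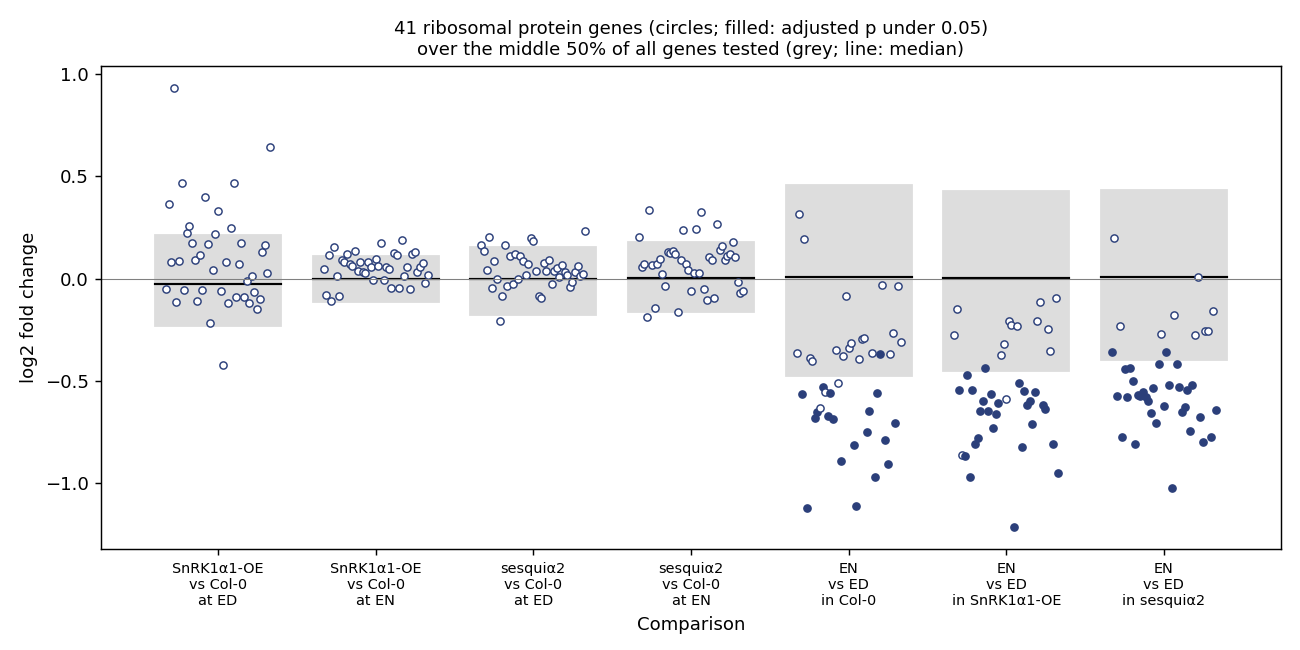
Log2 fold changes of the 41 genes (circles, filled where the adjusted p was under 0.05) in 4 genotype and 3 day to night comparisons, over the middle 50% of all genes tested (grey bars, with the median as a line). The genotype medians lie between 0.04 and 0.09 and no circle is filled there, while the day to night medians lie between -0.59 and -0.51.

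RPL4A was the member nearest to a genotype call. At ED it had 16880, 14940 and 14080 in Col-0, 11140, 11830 and 11420 in SnRK1α1-OE and 14050, 15120 and 14580 in sesquiα2. At EN it had 7958, 8738 and 9316 in Col-0, 9876, 10080 and 9462 in SnRK1α1-OE and 10890, 9571 and 10110 in sesquiα2. All SnRK1α1-OE libraries lay below all Col-0 libraries at ED and above them at EN. The log2 fold change at ED was -0.42 ± 0.10 (SE), with an adjusted p of 0.0815 by limma that was 0.0478 with quantile normalisation, 0.0136 in a fit of all 18 libraries and 0.0269 with the trend on gene length removed. At EN the log2 fold change was 0.18 (adjusted p = 0.999). The difference between genotypes in the EN over ED change was 0.59 ± 0.14 (adjusted p = 0.0829), with an adjusted p of 0.0494 on the values as deposited, 0.029 in the fit of all 18 libraries and 0.0386 without the length trend.

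Other members that differed most in SnRK1α1-OE at ED were PFL (log2 fold change 0.93, adjusted p = 0.101 by limma), RPL12C (0.64, 0.145), RPS11A (0.47, 0.16) and AT1G34030 (0.47, 0.175). For these 4, and for RPL5A and RPL10C with smaller differences, every SnRK1α1-OE library was above every Col-0 library. Replicate 3 of SnRK1α1-OE at ED was the highest for each of the 4. The median of other genes of 951 to 1289 bases stood 0.14 higher in this comparison. PFL was called higher in it without SnRK1α1-OE ED replicate 2 (1.21, adjusted p = 0.0498 by limma). The same held for RPS15A without Col-0 ED replicate 1 (0.532, adjusted p = 0.0497 by limma). In sesquiα2 at EN, 6 of the 41 genes were called higher when Col-0 EN replicate 1 was left out, against 0 with it. Among them were RPL10C, RPL23AB, PFL, RPL12A and RPL12C. That count is not set beside the share of all genes called in the same fit.

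The change from ED to EN did not differ between genotypes for any of the 41 genes at an adjusted p under 0.05. Between SnRK1α1-OE and Col-0, 0 of 41 were called, beside 0.0898% of 20041 genes, and between sesquiα2 and Col-0 0 were called, beside 0.865% of 20122 genes. At an unadjusted p under 0.05 there were 1 and 0, beside 17.1% and 16.4% of all genes, and edgeR called 0 in both. The median difference in log2 fold change over the 41 was -0.06 (0.01 for all genes) and 0.00 (-0.01 for all genes). Thus the differing counts of 19, 27 and 32 genes called in the 3 genotypes were not shown to differ by a test.

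Other genes of the translation machinery gave the setting for these changes. Of all genes tested, 21.6%, 24% and 25.7% were lower at EN and 21.7%, 23% and 24.6% higher in Col-0, SnRK1α1-OE and sesquiα2. These shares stand beside the EN over ED counts of each list below. Of 174 further cytosolic ribosomal protein genes, 164 were tested in Col-0, where 58 were lower and 1 higher at EN with a median log2 fold change of -0.45, and in SnRK1α1-OE and sesquiα2 110 and 122 of 163 were lower and 1 higher, with medians of -0.55 and -0.50. As for the 41 genes, the count in Col-0 rose to 118 without EN replicate 1 and fell to 35 without EN replicate 2, and in SnRK1α1-OE it was 145 without EN replicate 1 and 52 without EN replicate 3. The 2 with the largest called change in Col-0 were both low: RPS2B (AT1G59359; 85.5 ± 25.7 at ED and 12.2 ± 5.76 at EN, SD, n = 3) and RPS23A (AT3G09680; 15.2 ± 2.19 and 2.07 ± 1.95).

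Genes for the assembly of ribosomes fell further. Of 29 ribosome biogenesis genes, 25 were lower at EN in each genotype and 1, 3 and 1 were higher in Col-0, SnRK1α1-OE and sesquiα2, with median log2 fold changes of -1.24, -0.92 and -1.02. NUCL1 (AT1G48920), a nucleolin of the nucleolus, fell from 19680 ± 2380 at ED to 4021 ± 950 at EN in Col-0 (SD, n = 3), with a log2 fold change of -2.30 ± 0.18 (SE) and an adjusted p of 4.79e-05 by limma. AT4G25630, listed under MED36A and encoding a fibrillarin, fell from 3209 ± 424 to 694.2 ± 203 (log2 fold change -2.23, adjusted p = 9.93e-05). The counts of genes lower moved only between 24 and 25 as each library was left out.

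Translation factor genes were lower in 10, 9 and 9 of 16 and higher in 2, 0 and 2, with medians of -0.53, -0.39 and -0.39. AT5G12110, an elongation factor gene, fell from 301.1 ± 57.2 to 89.8 ± 8.29 in Col-0 (log2 fold change -1.71, adjusted p = 0.000296 by limma), and AT1G07930, for elongation factor 1-alpha, from 19310 ± 912 to 9709 ± 337 (-0.99, adjusted p = 0.000214). Among nuclear genes for plastid ribosomal proteins, 2 of 34 were higher and 0 lower in Col-0, fewer than the 21.7% of all genes higher there, with a median of 0.26 that was 0.09 on the values as deposited, and in SnRK1α1-OE and sesquiα2 4 and 5 were lower and 1 higher in each (medians -0.17 and -0.08). AT5G24490 rose from 5120 ± 1170 to 12880 ± 733 in Col-0 (log2 fold change 1.36, adjusted p = 0.000422), and RPL6 (AT1G05190) from 16020 ± 2570 to 24940 ± 6350 (0.63, adjusted p = 0.0347). The number of plastid genes higher in Col-0 was 16 without ED replicate 1 and as low as 1 without another library, and 13 in the fit of all 18 libraries.

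In the TOR pathway, 2, 3 and 3 of 5 genes were higher at EN and 0 were lower, beside 21.7%, 23% and 24.6% of all genes higher. The number higher was 1 in sesquiα2 in the fit of all 18 libraries. In SnRK1α1-OE it was as low as 1 as libraries were left out. Without Col-0 ED replicate 1, 1 gene was lower in Col-0. AT3G08730, an S6 kinase gene listed as ATPK1, rose from 1904 ± 225 to 5702 ± 829 in Col-0 (log2 fold change 1.58, adjusted p = 0.000121 by limma), and LST8-1 (AT3G18140) from 1843 ± 135 to 2832 ± 414 (0.62, adjusted p = 0.00717). Between genotypes, 0 genes of these 5 lists were called in SnRK1α1-OE against Col-0 at either time or in sesquiα2 at ED by limma, and 1 TOR pathway gene was higher in sesquiα2 at EN, a call lost in the fit of all 18 libraries and without any library of that comparison other than Col-0 EN replicate 1. These counts turned on the setting: in SnRK1α1-OE at ED, 11 plastid ribosomal protein genes were higher in the fit of all 18 libraries, and 17 plastid and 8 other cytosolic ribosomal protein genes were higher without Col-0 ED replicate 1. In sesquiα2 at EN, 25 other cytosolic ribosomal protein genes and 5 ribosome biogenesis genes were higher without Col-0 EN replicate 1. Under these single settings the share of all genes called is not given here, so the counts were not compared with it. 

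Markers of dividing cells moved with the day to night change in Col-0. All 7 genes (CYCB1-1, CYCB1-2, CDKB1-1, CDKB2-1, CDKB2-2, KN and AUR1) were lower at EN in Col-0, 3 in the SnRK1α1-OE line and 0 in sesquiα2. Of all genes tested, 21.6%, 24% and 25.7% were lower in these genotypes. The change from ED to EN was not called different from Col-0 in either line for any of the 7 genes by limma. Their summed normalised level was 3546 to 5497 at ED and 1948 to 2916 at EN in Col-0, 3089 to 3459 and 2182 to 2807 in SnRK1α1-OE, and 2739 to 5084 and 2884 to 3207 in sesquiα2. The ED level in sesquiα2 was 2739, 5084 and 2949, so that replicate 2 set the upper end of its range. The part of these markers in the change of the ribosomal protein genes was not tested in any genotype. In whole rosettes, fewer cells of a type and less RNA per cell cannot be told apart.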

How the data were processed

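Total RNA of whole rosettes was sequenced by paired-end reads on the BGISEQ-500. Per the labels and the study's methods, the authors aligned reads to TAIR10 with HISAT2, counted them per gene with featureCounts and exported edgeR pseudo-counts multiplied by TMM factors, so that the deposited values are a scaled signal and every library sums to nearly the same total. The strand setting and the treatment of multiply mapping reads are not given in the sources used here. Inverting that calculation gave back whole reads for 100% of 590994 values within 0.01 reads, 35050877 to 40416618 per library.

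Deposited values were divided by median-ratio factors. Genes reaching 10 in 3 libraries, with a sum of 15 or more, were tested with limma 3.58.1 (R 4.3.3, trend and robust) on log2(value + 1), fitting only the groups compared, with Benjamini-Hochberg adjustment over all genes tested and a threshold of 0.05. The labels call the libraries biological replicates, each a pool of rosettes. A count model, edgeR 4.0.16 quasi-likelihood on the recovered reads, and removal of each library's trend on gene length (lowess) were added after the data were seen. The other alternatives were pseudocounts of 0.125 and 4, no filter, no rescaling, quantile normalisation, a fit of all 18 libraries, no robust step, a replicate block and each library left out. The tests were also run on simulated data, and the outcome is not given here.

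Member genes and lists were chosen with earlier results of these data known. Results of 2 of the 41 members by name, and their ratio, are not reported here; values in every library are given for the members with the 3 largest called changes of a comparison, for paralogs that differ in call and for the highest and lowest level, and other genes are the 2 with the largest called change of a list in Col-0. The longer table of other cytosolic ribosomal protein genes kept 174 of 175 loci whose annotation names a ribosomal product. All 41 members matched the TAIR10.1 annotation, with lengths equal to the deposited ones, and 7 overlap another gene, namely PGY2, RPL24A, AT4G09800, AT4G00100, RPS11A, RPP0B and RPSAA, for which reads may be shared. Names follow RefSeq or, for some genes where the deposited table and RefSeq disagree, the locus. Some names kept here differ from the deposited ones. AT1G07770 (RPS15A here) is deposited as RPS15AF, AT1G22780 (PFL) as RPS18C and AT1G43170 (RPL3A) as ARP1. AT3G25520 (RPL5A) is deposited as ATL5 and AT1G33140 (PGY2) as RPL9B.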

Additional observations from a re-analysis of the deposited data

How the results depend on the processing

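With 3 libraries a group, single libraries set most of the limits. As each library was left out, the members called ran from 10 to 36 for EN against ED in Col-0, from 14 to 33 in SnRK1α1-OE and from 29 to 35 in sesquiα2, with median log2 fold changes from -0.70 to -0.35, -0.71 to -0.45 and -0.63 to -0.47. For SnRK1α1-OE against Col-0 at ED the count ran from 0 to 1, and for sesquiα2 against Col-0 at EN from 0 to 6 (6 without Col-0 EN replicate 1). The medians of the genotype comparisons lay between -0.10 and 0.26. Without Col-0 EN replicate 1, 3 values of single genes changed sign and passed the test: PFL for EN against ED in Col-0 (-0.35 without it, and up to 0.47 without EN replicate 2) and, for sesquiα2 against Col-0 at EN, PFL (0.37) and RPL12C (0.40, and down to -0.34 without EN replicate 2). Removing the trend on gene length gave 30 members for EN against ED in Col-0, and 1 member (RPL4A) was called in SnRK1α1-OE against Col-0 at ED with quantile normalisation, in the fit of all 18 libraries and without the length trend. For the difference of EN and ED changes between SnRK1α1-OE and Col-0, 1 member (RPL4A) was called on the values as deposited, in the fit of all 18 libraries and without the length trend. The values as deposited put the median of all genes at EN against ED in Col-0 at -0.16, and the members' median at -0.68 with 27 called. The cause of these changes was not tested, and they are not set beside the share of all genes called in the same fits.

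A replicate block gave 32 members for EN against ED in Col-0 (31 lower and 1, RPS15A, higher), 24 in SnRK1α1-OE and 28 in sesquiα2. It gave 0 in each genotype comparison. For all genes, the share called with the block is not given here. Same-numbered libraries deviated together with correlations of 0.32, 0.26 and 0.04 in Col-0, -0.05, 0.09 and -0.25 in SnRK1α1-OE and 0.10, -0.18 and 0.02 in sesquiα2, and of 0.50, 0.01 and 0.28 between SnRK1α1-OE and Col-0 at EN, where both replicate 1 libraries stand apart. Between genotypes in the other comparisons they were -0.39 to 0.24. Since not every pair was above 0.1 in any comparison, the numbers were not taken to pair the libraries.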
